A study of Mus musculus with 12 samples.

Results

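Mouse embryonic stem cells of the E14 line that had been differentiated and then sorted as positive for both a SOX17 and a T reporter (SOX17+/T+) were compared with undifferentiated mouse embryonic stem cells (mESC) of the same line. Each group had 3 libraries of poly(A) RNA. The remaining 6 of the series' 12 libraries, from cells sorted as T+ and as SOX17+, entered the fit to share its estimate of the spread. They also counted in the filter on low genes, and their levels are given beside the fibroblast genes. The members described here are all genes with at least 1 TPM, a measure of transcript abundance defined below, in 3 or more of the 12 libraries, which were 16097 of 54446 genes. The mESC had been grown in serum and LIF, a cytokine that keeps them undifferentiated, on irradiated primary embryonic fibroblasts (feeders). All cells were taken to a single-cell suspension with an enzyme before RNA was made. The labels name a sort for the differentiated populations and none for the mESC. The differentiation protocol, its length, the design of the reporters and whether the line is 1 clone are not given in these labels.

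In the embryo, epiblast cells become mesoderm and definitive endoderm at the primitive streak, where WNT, NODAL, BMP and FGF signals meet and an epithelium is taken apart. T (Brachyury) marks cells in and just leaving the streak, and SOX17, an HMG-box factor, marks definitive endoderm, the source of the gut and its organs. Stem cells kept in serum and LIF resemble an earlier stage, the naive epiblast, and hold a network of factors around POU5F1, SOX2 and NANOG.

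Levels are the authors' TPM values, which divide the reads of a gene by transcript length and scale every library to the same total. Each log2 fold change is the difference of log2(TPM + 1), SOX17+/T+ minus mESC, with the standard error of a limma fit. This scale understates the change of genes near or below 1 TPM. Genes were called at an adjusted p (Benjamini-Hochberg, over all tested genes) under 0.05, and a called gene changed by at least 2-fold where the fitted difference was also at least 1. A level is given library by library in the order of replicates 1, 2 and 3. For each gene given in this way for both groups, the 3 libraries of SOX17+/T+ cells and the 3 of mESC did not overlap. Medians of gene lists leave out members listed at 0 in all libraries of a group, because an exact 0 in this table can be a failed estimate. Whether replicates were separate cultures is not stated in the labels, and the p-values cover the spread among the libraries at hand, which may be technical. In bulk RNA, fewer cells of a type and less RNA per cell cannot be told apart.

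Most tested genes differed between SOX17+/T+ cells and mESC. Of 16097 genes, 5618 were called higher (34.9%) and 8103 lower (50.3%), and 2376 were not called. At least 2-fold, 1613 genes were higher (10.0%) and 3264 were lower (20.3%). The counts of gene lists below stand against these shares of all tested genes. The median log2 fold change of all tested genes was -0.19, so the typical gene had a slightly lower TPM value in SOX17+/T+ cells. With median-of-ratios scaling this median was -0.055, with 6468 genes higher and 7142 lower. With quantile normalization it was 0.063, with 7222 higher and 6359 lower. The balance of rises and falls therefore depended on the scaling. Of the called genes named below, those whose direction turned with the scaling are marked where they stand. Cytosolic ribosomal protein genes alone summed to 226642, 229711 and 224717 TPM in SOX17+/T+ cells, against 152085, 152709 and 153852 TPM in mESC.

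The reporter genes followed the sort. Sox17 had 148, 146 and 123 TPM in SOX17+/T+ cells, against 0.798, 0.484 and 0.632 TPM in mESC. T had 40.4, 31.7 and 61.5 TPM in SOX17+/T+ cells, against 0.650, 0.618 and 0.673 TPM in mESC. Neither gene's groups overlapped, and because both differences can follow from the gate they are given as a check of the labels only. Without Sox17 and T themselves, 19 of 25 definitive endoderm genes and 12 of 20 primitive streak genes were higher.

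RNA of fibroblast marker genes was present in the mESC libraries, and its values stand beside the falls described below. A list of 40 genes of cultured fibroblasts summed to 412, 433 and 436 TPM in SOX17+/T+ cells, against 7657, 9281 and 8816 TPM in mESC. Of these, 39 fell and 1, the gelatinase Mmp2, rose (1.32 ± 0.074). In the libraries of the other sorted populations the same list summed to 509, 548 and 507 TPM in T+ cells and 358, 351 and 352 TPM in SOX17+ cells. A stricter list of 10 genes that stem cells are not known to use summed to 29.3, 29.2 and 31.2 TPM in SOX17+/T+ cells, against 205, 253 and 221 TPM in mESC, and all 10 fell. Among them, Col3a1, a fibrillar collagen chain, had 0.252, 0.315 and 0.308 TPM in SOX17+/T+ cells, against 44.7, 59.5 and 49.9 TPM in mESC. Decorin (Dcn), a small matrix proteoglycan, had 0.0591, 0.0339 and 0.172 TPM in SOX17+/T+ cells, against 13.99, 16.5 and 15.9 TPM in mESC. Fap and Dpt, a fibroblast surface protease and a matrix protein, were listed at 0 in all SOX17+/T+ libraries. Not all of the strict markers were near 0 there: Prrx1, a homeobox factor of mesenchyme, still had 11.6, 10.2 and 10.4 TPM in SOX17+/T+ cells, and Twist2 had 7.54, 9.48 and 9.57 TPM.

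The level of the fibroblast markers differed among the mESC libraries. The fibroblast list summed to 7657, 9281 and 8816 TPM in mESC replicates 1, 2 and 3, so that replicate 1 stood at 0.846 of the mean of the other two. The same ratio was 0.813 for fibrillar and network collagens, 0.873 for macrophage and leukocyte genes, 0.879 for matrix glycoproteins, 0.881 for TGF-beta ligands and binding proteins, 0.892 for S100 and annexin genes and 0.916 for actin and smooth muscle genes. Lists named for other functions were low too, with 0.892 for visceral and parietal endoderm, 0.893 for WNT ligands, 0.907 for serine proteases and serpins and 0.914 for lateral and cardiac mesoderm. The ratio was 1.01 for naive pluripotency genes, 1.03 for general pluripotency genes, 1.07 for two-cell-like genes, 1.04 for germ cell genes and 1.05 for HOX cluster C. These ratios rest on 3 libraries and were chosen after the values were seen, and they carry no test. For some single genes the ratio is given beside the fall, and for most it is not. Single stem cell genes lay on both sides of 1, as for Klf2 (0.932), Tdh (0.987), Sox2 (1.03) and Zfp42 (1.05). The part of fibroblast RNA in any of the falls was not tested.

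**Figure D1:**
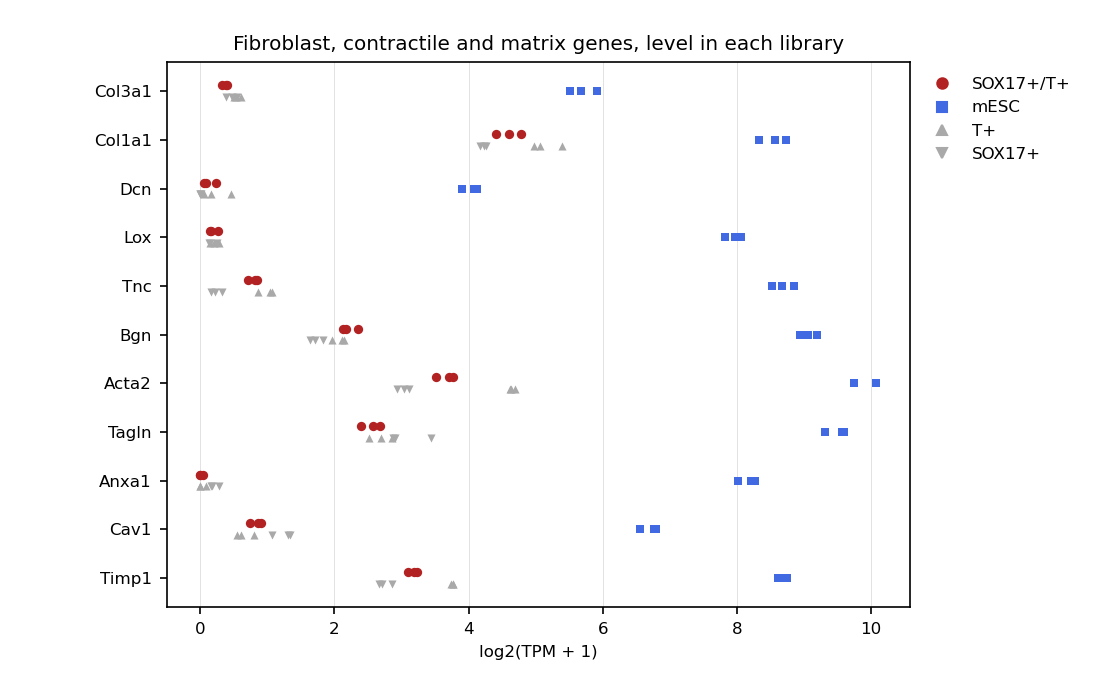
Levels of fibroblast, contractile and matrix genes on a log2(TPM + 1) axis, in each library of SOX17+/T+ cells (red circles), of mESC (blue squares) and of the T+ and SOX17+ populations (grey). Each mark is 1 library. For all 11 genes shown, the marks of every sorted library lie to the left of those of mESC, for example Col3a1 at 0.252, 0.315 and 0.308 TPM in SOX17+/T+ cells, against 44.7, 59.5 and 49.9 TPM in mESC.

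Within the families of lineage transcription factors, SOX17+/T+ cells and mESC differed by member. The GATA family, zinc-finger factors of endoderm, heart and blood, was higher as a whole: all 6 of 6 members rose, 5 of them at least 2-fold. Gata4 had 73.0, 64.1 and 68.8 TPM in SOX17+/T+ cells, against 1.84, 2.11 and 1.85 TPM in mESC (log2 fold change 4.57 ± 0.060, adjusted p = 1.3e-15). Gata6 had 59.8, 58.9 and 61.0 TPM in SOX17+/T+ cells, against 2.26, 2.15 and 2.43 TPM in mESC (4.22 ± 0.061, adjusted p = 2.9e-15). The libraries of SOX17+/T+ cells lay far above all mESC libraries for both. Gata3, which marks trophoblast and non-neural ectoderm as well as mesoderm, rose by 3.07 ± 0.074. Gata5 had 7.15, 6.77 and 6.50 TPM in SOX17+/T+ cells and was listed at 0 in mESC. Gata2, a factor of blood and endothelial progenitors, changed least, at 0.47 ± 0.085.

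SOX factors divided more evenly. Of 14 measured members, 8 rose, the reporter gene Sox17 among them, and 6 fell. Sox2, which holds the pluripotent state together with POU5F1, had 1.22, 1.31 and 1.46 TPM in SOX17+/T+ cells, against 359, 354 and 341 TPM in mESC (-7.24 ± 0.13, adjusted p = 1.7e-14). Sox15, a stem cell and muscle precursor factor, fell by 3.90 ± 0.17 and Sox3, a close relative of Sox2, by 1.45 ± 0.13. After Sox17, the largest rises were those of Sox11, a factor of progenitor cells, with 32.6, 31.9 and 34.1 TPM in SOX17+/T+ cells, against 2.90, 2.56 and 2.56 TPM in mESC (3.20 ± 0.065, adjusted p = 5.7e-14), and of Sox6 (2.26 ± 0.10) and Sox21 (1.54 ± 0.13). Sox7 and Sox18, the other members of the subfamily that holds Sox17, rose by 0.88 ± 0.11 and 1.19 ± 0.12 and stayed below 5 TPM, against over 100 TPM for Sox17 itself.

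Forkhead factors also divided. The 3 FOXA factors, which open chromatin at gut and liver genes, all rose: Foxa2 by 4.95 ± 0.22, Foxa1 by 3.08 ± 0.19 and Foxa3 by 2.76 ± 0.12. Foxa2 had 58.2, 49.2 and 71.9 TPM in SOX17+/T+ cells, against 1.07, 0.586 and 1.25 TPM in mESC. Foxf1, a factor of lateral and splanchnic mesoderm, had 37.8, 35.8 and 41.6 TPM in SOX17+/T+ cells, against 1.03, 1.29 and 1.37 TPM in mESC (4.14 ± 0.085, adjusted p = 6.2e-14). Foxh1, the partner of SMAD proteins in NODAL signalling, rose by 1.89 ± 0.041 to the highest forkhead level in SOX17+/T+ cells, with 164, 174 and 169 TPM. Foxd3, which stem cells need for self-renewal, had 0.0371, 0.0190 and 0 TPM in SOX17+/T+ cells, against 35.4, 34.4 and 30.1 TPM in mESC (-5.07 ± 0.075, adjusted p = 3.2e-15). Foxp1 (-1.85 ± 0.22) and Foxo1 (-1.01 ± 0.064) also fell, and Foxs1 (-2.88 ± 0.077), known from pericytes and smooth muscle, fell beside the fibroblast genes.

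T-box genes were mostly higher and POU genes lower. Of 9 T-box genes, 6 rose, a count that includes the reporter gene T. Among the others were Tbx20 of the heart field (3.59 ± 0.16), Tbx6 of paraxial mesoderm (2.42 ± 0.16), Tbx2 (2.12 ± 0.12) and Eomes (1.48 ± 0.21), which acts in the streak upstream of endoderm. Tbx3, a naive stem cell factor, fell by 1.08 ± 0.057 and kept 35.9, 34.6 and 38.1 TPM in SOX17+/T+ cells. Tbx15, known from limb and trunk mesenchyme, fell by 2.76 ± 0.076. Of 7 POU genes, 6 fell and none was called higher. Pou5f1 (OCT4) had 26.7, 26.2 and 22.3 TPM in SOX17+/T+ cells, against 1396, 1358 and 1348 TPM in mESC (-5.72 ± 0.11, adjusted p = 4.7e-13). It was still the most abundant POU transcript in SOX17+/T+ cells. Pou2f1, which most cells express, was not called (0.045 ± 0.081, adjusted p = 0.608).

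Homeobox genes of mesoderm and of the posterior body were among the largest rises. Msx1, a target of BMP signals, had 166, 161 and 160.2 TPM in SOX17+/T+ cells, against 0.652, 0.701 and 1.000 TPM in mESC (6.52 ± 0.083, adjusted p = 1.3e-15). Its relative Msx2 had 125, 127 and 125 TPM in SOX17+/T+ cells, against 1.77, 2.26 and 1.85 TPM in mESC (5.43 ± 0.059, adjusted p = 4.1e-16). Within the caudal genes, Cdx2 (4.21 ± 0.14) and Cdx4 (2.44 ± 0.11) rose while Cdx1 fell (-2.21 ± 0.16), with 0.384 ± 0.129 TPM in SOX17+/T+ cells and 5.43 ± 0.988 TPM in mESC (SD, n = 3 each) on average. Evx1, a posterior streak gene, rose by 4.18 ± 0.12, and the long non-coding Evx1os that lies beside it rose by 2.99 ± 0.11. Isl1 (4.09 ± 0.11), a factor of the second heart field, and Lhx1 (3.23 ± 0.17), which acts in the anterior streak and node, were the LIM homeobox genes with the largest rises. Nanog had 13.2, 8.87 and 16.2 TPM in SOX17+/T+ cells, against 451, 451 and 418 TPM in mESC (-5.04 ± 0.22, adjusted p = 2.7e-09). Gbx2 fell by 5.08 ± 0.14. The Rhox genes of the X chromosome, which stem cells and germ cells express, also fell, with Rhox5 at -3.52 ± 0.13 and Rhox9 at -2.99 ± 0.073. Otx2 and Hhex, 2 genes of the anterior endoderm, were not called (adjusted p = 0.807 and 0.752), with levels of 11.4 ± 7.32 TPM in SOX17+/T+ cells and 9.27 ± 1.04 TPM in mESC (SD, n = 3 each) for Otx2 and 6.65 ± 1.59 TPM in SOX17+/T+ cells and 6.34 ± 0.847 TPM in mESC (SD, n = 3 each) for Hhex.

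HOX genes, which specify position along the body, differed by cluster and, among the genes named of cluster B, by place in the cluster. In cluster B, Hoxb1 at the 3' end had 9.82, 8.82 and 7.38 TPM in SOX17+/T+ cells, against 0.516, 0.554 and 0.419 TPM in mESC (2.69 ± 0.15, adjusted p = 1.5e-09). Hoxb2 (1.38 ± 0.088), Hoxb3 (1.16 ± 0.10), Hoxb4 (0.63 ± 0.094) and Hoxb6 (0.46 ± 0.11) rose by less, and Hoxb9 toward the other end of the cluster fell (-1.94 ± 0.23). In cluster A, 3 of 7 tested genes rose, 1 at least 2-fold, and 3 fell. Hoxa3 (0.75 ± 0.13) and Hoxa2 (0.70 ± 0.085) were among the rises, and Hoxa7 (-1.01 ± 0.25) and Hoxa10 (-1.32 ± 0.083) among the falls. All 7 of 7 tested genes of cluster C fell, led by Hoxc6 (-2.49 ± 0.19) and Hoxc8 (-2.38 ± 0.13), and their sum was 2.32, 2.40 and 2.47 TPM in SOX17+/T+ cells, against 25.6, 25.0 and 23.7 TPM in mESC. In cluster D, Hoxd9 rose by 2.66 ± 0.12 and Hoxd1 by 2.04 ± 0.12, and Hoxd13 fell (-1.18 ± 0.080), so the rises there did not follow the order of cluster B. Haglr, a non-coding RNA of the HOXD cluster, rose by 2.38 ± 0.080. Nearly all HOX genes stood below 10 TPM in both groups. Fibroblasts of the trunk are known to express posterior HOX genes, and the ratio of mESC replicate 1 to the others was 1.05 for cluster C.

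Basic helix-loop-helix factors included the largest rise in a ranking of called genes. It held genes with a mean of at least 10 TPM in the higher group and no overlap between groups, without predicted genes and clone names. Hand1, a factor of the heart, lateral mesoderm and extraembryonic mesoderm, had 389, 442 and 463 TPM in SOX17+/T+ cells, against 0.429, 0.566 and 0.565 TPM in mESC (8.15 ± 0.070, adjusted p = 1.4e-16). Mesp1, the earliest factor of cardiac mesoderm, rose by 4.62 ± 0.16, Hand2 by 3.72 ± 0.11 and Msgn1, of presomitic mesoderm, by 3.47 ± 0.18. The ID genes, inhibitors of bHLH factors and targets of BMP signals, were higher for Id2 (2.55 ± 0.18), Id1 (1.71 ± 0.078) and Id3 (0.70 ± 0.051), and Id4 was not called (-0.037 ± 0.088, adjusted p = 0.702), although it was called higher with quantile normalization, at 0.25. Tcf15, a gene of somites that stem cells also express as they leave the naive state, had 0.886, 0.636 and 1.74 TPM in SOX17+/T+ cells, against 103, 91.8 and 89.5 TPM in mESC (-5.55 ± 0.23, adjusted p = 3.6e-10). Mycn fell by 2.20 ± 0.094 and Myc by 1.13 ± 0.068.

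Among zinc fingers, SP factors and KLF factors parted. Sp5 (2.66 ± 0.12) and Sp8 (3.00 ± 0.11), which carry WNT responses in the streak, rose. Klf2, Klf4 and Klf5, which act together in naive stem cells, fell (-7.81 ± 0.10, -4.36 ± 0.080 and -4.52 ± 0.087). Klf2 had 0.518, 0.502 and 0.493 TPM in SOX17+/T+ cells, against 322, 329 and 362 TPM in mESC, the widest gap of the family. Klf6, a widely expressed member, rose by 0.84 ± 0.039 and was the KLF gene with the highest level in SOX17+/T+ cells, with 94.5, 90.9 and 93.3 TPM. Prdm6, a repressor known from smooth muscle and heart, had 38.8, 40.0 and 40.4 TPM in SOX17+/T+ cells, against 0.121, 0.149 and 0.231 TPM in mESC (5.13 ± 0.060, adjusted p = 5.7e-16). The hedgehog effectors Gli1 (-1.96 ± 0.12) and Gli2 (-2.55 ± 0.072) fell while Gli3 rose (1.13 ± 0.086).

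Among nuclear receptors, 19 of 28 fell. Esrrb, an orphan receptor at the centre of the naive network, fell by 7.25 ± 0.11, and Nr5a2, which can stand in for OCT4 in reprogramming, by 5.17 ± 0.081. Nr0b1 (DAX1), a repressor in stem cells, was listed at 0 in SOX17+/T+ cells, against 131, 127 and 128 TPM in mESC. Rarg, the main retinoic acid receptor of stem cells, fell by 2.49 ± 0.081. Hnf4a, a receptor of visceral endoderm and liver, rose by 1.49 ± 0.083 to 5.83, 5.68 and 4.94 TPM. Of the early-response genes, Fos (-3.54 ± 0.12), Fosb (-5.23 ± 0.13), Junb (-3.32 ± 0.085), Egr1 (-3.92 ± 0.19) and Nr4a1 (-3.17 ± 0.094) were all lower in SOX17+/T+ cells, and Jun was higher (1.04 ± 0.073). These genes respond to serum and to handling of live cells, and the contribution of either was not tested.

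**Figure D2:**
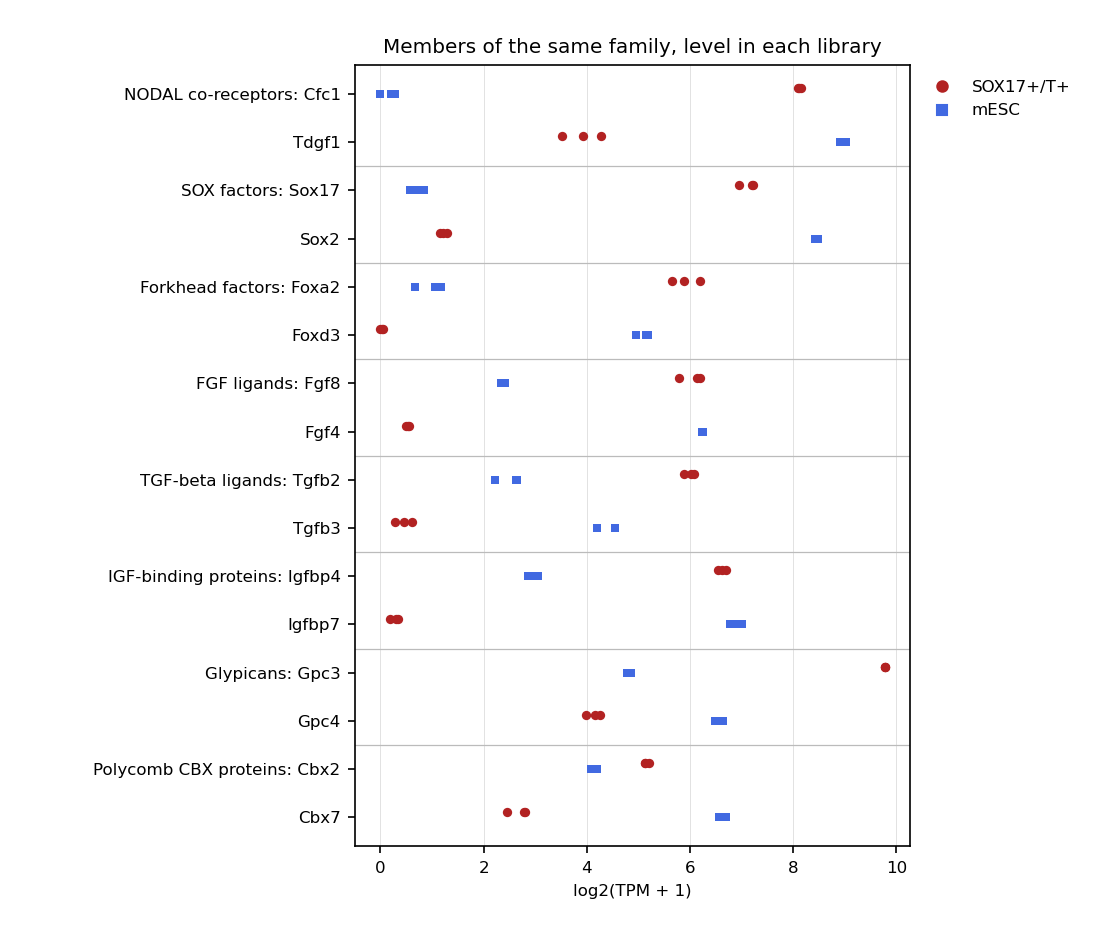
Levels of paired members of 8 gene families on a log2(TPM + 1) axis, in each SOX17+/T+ library (red circles) and each mESC library (blue squares). For each family the upper gene was higher in SOX17+/T+ cells and the lower gene was higher in mESC, as for the NODAL co-receptors Cfc1 (274, 277 and 282 TPM in SOX17+/T+ cells, 0, 0.217 and 0.147 TPM in mESC) and Tdgf1 (14.2, 10.5 and 18.3 TPM in SOX17+/T+ cells, 518, 486 and 478 TPM in mESC). The pairs were chosen after their values were seen.

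NODAL signalling, which specifies endoderm, showed an exchange of its co-receptors. NODAL binds its receptors through an EGF-CFC protein, either CRIPTO (gene Tdgf1) or CRYPTIC (gene Cfc1). Cfc1 had 274, 277 and 282 TPM in SOX17+/T+ cells, against 0, 0.217 and 0.147 TPM in mESC (7.96 ± 0.073, adjusted p = 1.4e-16). Tdgf1 had 14.2, 10.5 and 18.3 TPM in SOX17+/T+ cells, against 518, 486 and 478 TPM in mESC (-5.04 ± 0.17, adjusted p = 6.7e-11). In every library the sum of both was made up almost wholly of Cfc1 in SOX17+/T+ cells and of Tdgf1 in mESC. The ligand gene Nodal had 6.16, 5.20 and 8.10 TPM in SOX17+/T+ cells, against 84.9, 80.3 and 87.6 TPM in mESC (-3.53 ± 0.16, adjusted p = 6.8e-10). Its secreted inhibitors Lefty1 (-6.14 ± 0.19) and Lefty2 (-3.86 ± 0.15) and its relative Gdf3 (-6.45 ± 0.089) also fell. Cer1, an inhibitor that anterior endoderm secretes, went the other way (3.64 ± 0.67), with 8.69, 6.72 and 27.3 TPM in SOX17+/T+ cells. The type II receptors Acvr2a (1.02 ± 0.058) and Acvr2b (1.05 ± 0.068) and the signal carriers Smad3 (0.99 ± 0.059) and Smad4 (0.76 ± 0.035) rose. The activin genes Inhba and Inhbb, which fibroblast feeders are known to secrete, fell (-6.04 ± 0.076 and -5.35 ± 0.064). For Inhba the ratio of mESC replicate 1 to the others was 0.856, and for Nodal it was 1.01.

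The main BMP ligands rose. Bmp4, the signal of the posterior streak, had 119, 125 and 125 TPM in SOX17+/T+ cells, against 21.6, 20.6 and 20.9 TPM in mESC (2.49 ± 0.045, adjusted p = 1.7e-14). Bmp5 (4.27 ± 0.088), Bmp7 (3.92 ± 0.064) and Bmp2 (3.80 ± 0.10) rose further, and Bmp7 had 34.1, 33.4 and 37.9 TPM in SOX17+/T+ cells, against 1.20, 1.52 and 1.45 TPM in mESC. Bmp8a (-1.10 ± 0.062) and Bmp8b (-1.27 ± 0.088), known from germ cells and trophoblast, fell. The extracellular inhibitors divided: Nog (3.09 ± 0.16) and Chrd (2.45 ± 0.29), known from the node, rose, and Grem1 (-4.03 ± 0.080), known from fibroblasts and other mesenchyme, fell. The intracellular inhibitors Smad6 (1.92 ± 0.066) and Bambi (2.70 ± 0.054), which BMP signals induce, rose. In all, 19 of 30 members rose and 9 fell, with a median of 0.78. In the related TGF-beta group, Tgfb2 (3.49 ± 0.11) and Tgfb1 (1.58 ± 0.079) rose and Tgfb3 fell (-3.99 ± 0.11). The latent TGF-beta binding proteins Ltbp2 (-5.61 ± 0.085), Ltbp3 (-2.71 ± 0.11) and Ltbp4 (-2.70 ± 0.068) of the matrix fell with the fibroblast genes.

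WNT feedback genes were mostly higher. Of the 16 intracellular targets and TCF factors, 10 rose, 8 at least 2-fold, with a median of 1.01. Nkd1, an inhibitor that WNT induces, had 56.5, 50.2 and 54.7 TPM in SOX17+/T+ cells, against 1.09, 1.43 and 1.49 TPM in mESC (4.55 ± 0.070, adjusted p = 4.2e-15). Axin2 (2.42 ± 0.057), Rnf43 (3.05 ± 0.083) and Lef1 (1.94 ± 0.076) rose as well. The repressor Tcf7l1 (TCF3), which restrains WNT targets in stem cells, fell by 1.46 ± 0.043, and the activator Tcf7 rose by 0.93 ± 0.058. Of the ligands, Wnt5b (2.64 ± 0.077), Wnt3 (2.49 ± 0.087) and Wnt11 (1.44 ± 0.13) rose and Wnt7b fell (-3.18 ± 0.064). Wnt3a was not called (-0.32 ± 0.18, adjusted p = 0.110). Of the receptors, Fzd2 (2.02 ± 0.047) and Fzd4 (2.08 ± 0.071) rose and Fzd5 fell (-2.88 ± 0.13). Dkk1, a secreted inhibitor of WNT, had 87.3, 78.2 and 106 TPM in SOX17+/T+ cells, against 0.458, 0.481 and 0.758 TPM in mESC (5.86 ± 0.13, adjusted p = 8.5e-13).

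FGF ligands were exchanged. Fgf8 had 69.4, 54.1 and 72.4 TPM in SOX17+/T+ cells, against 4.32, 4.32 and 4.06 TPM in mESC (3.65 ± 0.22, adjusted p = 4.1e-08), and Fgf10 (2.87 ± 0.069), Fgf3 (2.85 ± 0.12) and Fgf15 (2.28 ± 0.12) rose too. Fgf4, the ligand that stem cells secrete, had 0.444, 0.476 and 0.406 TPM in SOX17+/T+ cells, against 75.0, 74.1 and 74.9 TPM in mESC (-5.71 ± 0.088, adjusted p = 4.7e-15). Fgf17, a close relative of Fgf8, fell by 4.81 ± 0.26. Fgf2 (-3.71 ± 0.080) and Fgf7 (-2.82 ± 0.078), 2 ligands of fibroblasts, fell. Among the receptors, Fgfr3 (3.08 ± 0.084), Fgfr4 (1.34 ± 0.10) and Fgfr2 (1.52 ± 0.10) rose, and the decoy receptor Fgfrl1 rose by 2.61 ± 0.081. Fgfr1 was nearly level (-0.19 ± 0.077), and its difference turned to 0.16 with quantile normalization. It was not called with median-of-ratios scaling (-0.030), without SOX17+/T+ replicate 1 (-0.11) or without mESC replicate 2 (-0.13). Of the list of FGF receptors and ERK feedback genes, 9 of 24 members rose (37.5%) and 13 fell (54.2%). The shares of all tested genes were 34.9% and 50.3%. Among the feedback genes, which ERK signalling induces, Spry4 (-4.21 ± 0.12), Etv4 (-2.74 ± 0.084), Etv5 (-2.57 ± 0.063), Dusp6 (-2.01 ± 0.13) and Spry2 (-1.67 ± 0.072) fell, and Dusp4 (0.89 ± 0.086) and Spry1 (0.49 ± 0.056) rose.

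LIF pathway genes were lower. Of 18 members, 15 fell and 2 rose, the kinase gene Jak2 (0.70 ± 0.065) and the receptor gene Il11ra1 (0.69 ± 0.10). Socs3, a feedback inhibitor induced by STAT3, had 5.22, 5.79 and 4.89 TPM in SOX17+/T+ cells, against 86.2, 83.2 and 88.2 TPM in mESC (-3.79 ± 0.11, adjusted p = 1.4e-12). Pim1 (-3.79 ± 0.092) and Stat3 itself (-2.21 ± 0.063) fell, and the receptor gene Lifr changed little (-0.31 ± 0.062). Osmr, the oncostatin receptor of fibroblasts, fell by 3.79 ± 0.074.

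Most of the IGF pathway genes described here rose. Igf2, an imprinted growth factor of the embryo, had 835, 919 and 876 TPM in SOX17+/T+ cells, against 23.3, 26.2 and 26.0 TPM in mESC (5.07 ± 0.054, adjusted p = 4.4e-16). Both of its receptors, Igf1r (1.42 ± 0.080) and the clearing receptor Igf2r (2.06 ± 0.049), rose, as did the insulin receptor Insr (1.26 ± 0.092) and the adaptors Irs1 (1.32 ± 0.075) and Irs2 (1.25 ± 0.075). The secreted binding proteins were exchanged: Igfbp4 (3.68 ± 0.061), Igfbp5 (2.82 ± 0.20) and Igfbp2 (1.03 ± 0.046) rose, and Igfbp7 (-6.61 ± 0.087), Igfbp6 (-2.06 ± 0.13) and Igfbp3 (-1.24 ± 0.16), known from fibroblasts and vessels, fell. Igfbp7 had 0.264, 0.240 and 0.141 TPM in SOX17+/T+ cells, against 109, 128 and 116 TPM in mESC, with a ratio of mESC replicate 1 to the others of 0.892.

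Guidance receptors and their ligands were divided. Of the apelin, chemokine and sphingosine phosphate guidance list, 8 of 20 members rose (40%) and 9 fell (45%). Among all tested genes 34.9% rose and 50.3% fell. Aplnr, the receptor for ELABELA and apelin that guides early mesendoderm, had 58.3, 57.5 and 60.0 TPM in SOX17+/T+ cells, against 0.00752, 0.0119 and 0 TPM in mESC (5.89 ± 0.059, adjusted p = 2.2e-16). Its ligand gene Apela rose by 2.53 ± 0.084 and the chemokine receptor gene Cxcr4 by 3.87 ± 0.18, while Cxcl12, the ligand of CXCR4 that stromal cells make, fell (-3.02 ± 0.13). Shh, made by node and notochord, had 13.6, 13.03 and 25.7 TPM in SOX17+/T+ cells, against 0, 0.0307 and 0.0637 TPM in mESC (4.10 ± 0.34, adjusted p = 9.4e-07), and its receptor gene Ptch1, a target of the pathway, was not called (0.17 ± 0.15, adjusted p = 0.303). Of the Notch genes, Dll3 (2.73 ± 0.11), Notch3 (2.06 ± 0.075), Hey1 (2.95 ± 0.10) and Nrarp (2.45 ± 0.16) rose, Rbpj, the DNA-binding partner of Notch, fell (-2.37 ± 0.039), and Dll1 was not called (-0.028 ± 0.10, adjusted p = 0.801). Aldh1a2, which makes retinoic acid, rose by 3.92 ± 0.10, and Cyp26a1, which breaks it down, by 2.41 ± 0.17.

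Contact and guidance genes were mostly higher. Of 18 ephrins and Eph receptors, 15 rose, 12 at least 2-fold, with a median of 1.24, against -0.19 for all tested genes. Efna1, an ephrin expressed in the streak and endoderm, had 45.5, 44.6 and 46.1 TPM in SOX17+/T+ cells, against 1.47, 1.45 and 1.28 TPM in mESC (4.27 ± 0.059, adjusted p = 1.9e-15), and Efnb3 rose by 3.76 ± 0.057. Epha2 was the exception of size (-2.88 ± 0.085), with 11.7 ± 1.10 TPM in SOX17+/T+ cells and 92.0 ± 2.80 TPM in mESC (SD, n = 3 each). The netrin receptor Unc5c had 48.8, 58.1 and 58.5 TPM in SOX17+/T+ cells, against 0.391, 0.566 and 0.639 TPM in mESC (5.19 ± 0.079, adjusted p = 4.0e-15). Of semaphorins, plexins, netrins, Slits and their receptors, 21 of 37 rose, among them Plxnd1 (2.66 ± 0.072), Slit1 (2.57 ± 0.12), Sema4c (2.47 ± 0.094) and Sema6a (2.25 ± 0.12). Sema4b (-1.33 ± 0.087) and Sema3e (-1.41 ± 0.11) fell.

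Cadherins showed a partial exchange. N-cadherin (Cdh2), which mesoderm takes up when it leaves the streak, had 68.5, 56.2 and 74.4 TPM in SOX17+/T+ cells, against 12.1, 13.02 and 11.6 TPM in mESC (2.34 ± 0.10, adjusted p = 7.9e-11). E-cadherin (Cdh1), the epithelial cadherin, had 106, 97.4 and 108 TPM in SOX17+/T+ cells, against 185, 176 and 187 TPM in mESC (-0.81 ± 0.076, adjusted p = 3.7e-07), so that it remained the more abundant of the pair in SOX17+/T+ cells. Pcdh18 (3.27 ± 0.069) and Pcdh8 (1.92 ± 0.21), protocadherins of mesoderm, rose. Of 26 claudin and tight junction genes, 21 rose and 4 fell. Crb2, an apical polarity protein needed for cells to leave the streak, had 53.6, 58.3 and 55.0 TPM in SOX17+/T+ cells, against 0.461, 0.468 and 0.436 TPM in mESC (5.28 ± 0.058, adjusted p = 4.1e-16). Cldn6 had 243, 224 and 225 TPM in SOX17+/T+ cells, against 25.0, 25.0 and 28.6 TPM in mESC (3.09 ± 0.095, adjusted p = 1.5e-11), and Cldn7 rose by 3.60 ± 0.072. Jam2, a junctional adhesion molecule, fell (-4.80 ± 0.092). Of the factors that drive the loss of an epithelium, Snai2 rose by 1.48 ± 0.10 and Zeb2 by 0.58 ± 0.14, and Zeb1 fell (-0.63 ± 0.071). Snai1 was higher by 0.22 ± 0.088, a call that was lost in a fit of only the 6 libraries, with no filter on low genes, without SOX17+/T+ replicate 3 (0.15) and without mESC replicate 1 (0.12). Epcam, a surface marker of epithelia and stem cells, was nearly level (0.24 ± 0.051).

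Keratins were exchanged within the family. The simple-epithelium keratins Krt18, Krt8 and Krt19 rose by 5.27 ± 0.079, 5.14 ± 0.090 and 4.66 ± 0.17. Krt8 had 525, 534 and 524 TPM in SOX17+/T+ cells, against 15.2, 13.6 and 13.1 TPM in mESC. Krt17 fell by 3.31 ± 0.075, and Krt42, a keratin of stem cells, was listed at 0 in SOX17+/T+ cells, against 40.1, 40.7 and 37.5 TPM in mESC. Desmoplakin (Dsp, 3.39 ± 0.092) and desmocollin 2 (Dsc2, 3.15 ± 0.065) of the desmosome rose and plakoglobin (Jup) fell (-1.08 ± 0.080). Of the connexins and pannexins, which form gap junctions and channels, 3 of 10 members rose and 6 fell. Among all tested genes 34.9% rose and 50.3% fell. Gja1, the most abundant in both groups, rose by 1.40 ± 0.067.

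Of the list of transmembrane serine proteases, serpins and related genes, 15 of 34 members rose (44.1%) and 18 fell (52.9%). Among all tested genes 34.9% rose and 50.3% fell. Tmprss2, a transmembrane serine protease of epithelia, had 117, 106 and 93.8 TPM in SOX17+/T+ cells, against 0.0413, 0.113 and 0.0554 TPM in mESC (6.63 ± 0.084, adjusted p = 1.1e-15). Carboxypeptidase M (Cpm, 5.63 ± 0.066), Prss8 (3.34 ± 0.069), Prss12 (2.96 ± 0.070) and hepsin (Hpn, 2.68 ± 0.081), which also sit at the cell surface, rose. The plasminogen activator Plau (-4.06 ± 0.086) and its receptor Plaur (-2.88 ± 0.087) fell. Prss23 (-6.20 ± 0.12) and Serpinf1 (-4.04 ± 0.13), 2 genes of stromal cells, fell with them.

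Matrix genes fell more often than they rose. Of 24 fibrillar and network collagen chains, 16 fell and 7 rose. Col1a1 had 20.3, 26.6 and 23.3 TPM in SOX17+/T+ cells, against 322, 422 and 377 TPM in mESC (-3.94 ± 0.13, adjusted p = 3.1e-11). Col12a1 (-5.22 ± 0.094), Col6a3 (-4.97 ± 0.084) and Col5a2 (-4.92 ± 0.092) fell beside it. The rises were Col26a1 (3.75 ± 0.056), Col9a1 (3.47 ± 0.12), Col23a1 (2.39 ± 0.10), Col9a3 (2.37 ± 0.11), Col2a1 (1.66 ± 0.15), Col14a1 (1.14 ± 0.12) and Col22a1 (0.56 ± 0.10), and types II and IX are the collagens of notochord and cartilage. Of 25 basement membrane genes, 12 rose (48%) and 13 fell (52%), against 34.9% and 50.3% of all tested genes. Col4a6 (2.88 ± 0.063), Fbln1 (1.76 ± 0.044), Lama5 (1.08 ± 0.069) and Col4a1 (0.81 ± 0.10) rose, and Nid1 (-2.94 ± 0.062), Fbln2 (-3.41 ± 0.12), Fbln5 (-4.84 ± 0.065) and Sparc (-1.62 ± 0.093) fell.

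Glypicans were exchanged. Glypican 3 (Gpc3), a heparan sulfate proteoglycan that restrains growth, had 874, 874 and 879 TPM in SOX17+/T+ cells, against 27.9, 26.6 and 27.5 TPM in mESC (4.95 ± 0.027, adjusted p = 1.4e-18). Gpc6 (3.53 ± 0.18), Gpc2 (2.04 ± 0.11) and Gpc1 (1.20 ± 0.052) rose too, and Gpc4, the glypican of stem cells that lies beside Gpc3 on the X chromosome, fell (-2.45 ± 0.080), with 17.0, 14.7 and 18.1 TPM in SOX17+/T+ cells, against 88.9, 98.5 and 97.8 TPM in mESC. Fibronectin (Fn1), the matrix of migrating mesoderm, stood at 982, 963 and 865 TPM in SOX17+/T+ cells and rose by 0.65 ± 0.10. Fbn2, the fibrillin of embryos, rose (3.37 ± 0.086) while Fbn1 fell (-1.26 ± 0.086). Tenascin C (Tnc, -7.89 ± 0.090), lysyl oxidase (Lox, -7.76 ± 0.080), biglycan (Bgn, -6.84 ± 0.085), Thbs1 (-6.79 ± 0.13) and Timp1 (-5.52 ± 0.059) fell. Spp1 (osteopontin), a gene of stem cells as well as of stromal cells, had 0.784, 0.984 and 0.900 TPM in SOX17+/T+ cells, against 575, 646 and 557 TPM in mESC, and its ratio of mESC replicate 1 to the others was 0.956, against 0.849 for Tnc and 0.874 for Lox. Integrins fell in 13 of 18, including Itgb1 (-0.77 ± 0.039), Itga5 (-1.25 ± 0.059), Itga6 (-1.14 ± 0.11) and Itga3 (-2.57 ± 0.073). Itgb8 (2.20 ± 0.10), Itga2b (1.05 ± 0.11) and Itgb5 (0.87 ± 0.061) rose.

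The contractile cytoskeleton was lower in SOX17+/T+ cells. Of 38 genes, 34 fell and 3 rose: Actc1 (0.91 ± 0.10), the cardiac actin, non-muscle myosin Myh10 (0.76 ± 0.070) and Flnc (0.50 ± 0.077). Smooth muscle actin (Acta2) had 10.4, 12.6 and 12.1 TPM in SOX17+/T+ cells, against 859, 1080.2 and 1078 TPM in mESC (-6.31 ± 0.089, adjusted p = 2.8e-15). Transgelin (Tagln, -6.94 ± 0.15), Myl9 (-5.54 ± 0.13) and Actg2 (-6.57 ± 0.14) fell by similar amounts. The general cytoskeletal genes Actb (-1.08 ± 0.028), vimentin (Vim, -1.41 ± 0.067) and Actg1 (-0.32 ± 0.028) fell by less. The S100 and annexin genes moved alike: S100a6 had 1.53, 2.33 and 1.54 TPM in SOX17+/T+ cells, against 844, 962 and 934 TPM in mESC, Anxa1 fell by 8.15 ± 0.077, and S100a4 was listed at 0 in SOX17+/T+ cells, against 242, 279 and 274 TPM in mESC. The caveola genes Cav1 (-5.87 ± 0.10), Cavin1 (-3.56 ± 0.072) and Cavin2 (-4.32 ± 0.11) fell as well. Of the small heat-shock genes that muscle and fibroblasts use, Hspb1 (-6.02 ± 0.12) and Cryab (-4.92 ± 0.14) fell. All these genes are known from fibroblasts, mESC are known to express some of them, and the share of each source was not tested. Mylpf, a myosin light chain of fast muscle, had 2.20, 2.16 and 2.14 TPM in SOX17+/T+ cells, against 224, 215 and 208 TPM in mESC (-6.10 ± 0.16), and Mymx (myomixer), which fuses myoblasts, had 0.0846, 0.167 and 0.182 TPM in SOX17+/T+ cells, against 90.3, 84.5 and 78.9 TPM in mESC (-6.22 ± 0.10). The ratio of mESC replicate 1 to the others was 1.06 for Mylpf and 1.10 for Mymx.

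The pluripotency genes fell. All 19 of 19 naive genes fell at least 2-fold, 3 of them listed at 0 in all SOX17+/T+ libraries, with a median of -5.13 for the others. The sum of the list was 98.8, 88.8 and 103 TPM in SOX17+/T+ cells, against 3014, 2984 and 2975 TPM in mESC. Zfp42 (REX1) had 1.60, 1.35 and 1.58 TPM in SOX17+/T+ cells, against 533, 517 and 497 TPM in mESC (-7.69 ± 0.14, adjusted p = 2.3e-14). Of 22 general pluripotency and stem cell genes, 21 fell. Dppa5a, an RNA-binding protein of stem cells, had 4.43, 2.58 and 5.87 TPM in SOX17+/T+ cells, against 2146, 2114 and 2098 TPM in mESC (-8.70 ± 0.27, adjusted p = 2.9e-10). That was the largest fall in the same ranking in which Hand1 had the largest rise. Among the other members, Utf1 (-8.32 ± 0.11), Dnmt3l (-8.18 ± 0.090), Tdh (-7.92 ± 0.10) and L1td1 (-7.02 ± 0.10) fell. Lin28a was the 1 member that rose (0.48 ± 0.069), with 392, 372 and 327 TPM in SOX17+/T+ cells, against 264, 252 and 264 TPM in mESC. Sall4 (-0.73 ± 0.050) and Dnmt3b (-0.45 ± 0.084) fell by little. Of the list of LIN28, let-7 pathway and oncofetal RNA-binding genes, 15 of 32 tested members rose (46.9%) and 15 fell (46.9%). The shares of all tested genes were 34.9% and 50.3%. Lin28b, the relative of Lin28a, rose (1.37 ± 0.077), as did Hmga2 (1.90 ± 0.053), Arid3b (1.53 ± 0.064), Igf2bp2 (1.04 ± 0.054) and Igf2bp3 (1.51 ± 0.031). These belong to the same oncofetal group of let-7 targets, and Igf2bp1 fell (-0.82 ± 0.057).

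Genes of the rare two-cell-like state of stem cell cultures and genes of germ cells fell as well. All 16 of 16 tested members of the two-cell-like list fell, but 10 of them were listed at 0 in all SOX17+/T+ libraries. For those members no other direction was possible, and an exact 0 can be a failed estimate. The Zscan4 genes are near copies of each other, so reads may be split among them, and Zscan4a to Zscan4f were listed at 0 in SOX17+/T+ cells. Zscan4c had 21.0, 21.0 and 18.7 TPM in mESC. The sum of the list was 78.8, 77.0 and 80.9 TPM in SOX17+/T+ cells, against 398, 380.0 and 362 TPM in mESC, which in SOX17+/T+ cells was nearly all Eif1a, with 78.8, 76.7 and 80.5 TPM there. Of 27 germ cell and meiotic genes, 24 fell and 3 rose: Prdm1 (BLIMP1, 0.57 ± 0.10), Rec8 (0.36 ± 0.075) and Stag3 (0.36 ± 0.077). Tex19.1, which protects germ cells from retroelements, had 0.595, 0.576 and 0.734 TPM in SOX17+/T+ cells, against 88.7, 87.1 and 87.9 TPM in mESC (-5.77 ± 0.10, adjusted p = 9.4e-15), and Mael (-4.50 ± 0.091), Dazl (-3.36 ± 0.062) and Ddx4 (-3.16 ± 0.078) fell. Hormad1 was listed at 0 in SOX17+/T+ cells, against 44.2, 38.8 and 40.4 TPM in mESC.

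Silencing factors fell alongside. Of 26 genes of KRAB-associated silencing and retroelement control, 24 fell and 2 rose: Pphln1 (0.93 ± 0.065) and Smchd1 (0.63 ± 0.084). Trim28 (KAP1), the shared co-repressor of KRAB zinc fingers, had 446, 432 and 457 TPM in SOX17+/T+ cells, against 1345, 1308 and 1267 TPM in mESC (-1.55 ± 0.033, adjusted p = 7.9e-14). Zfp57, which guards imprints through TRIM28, fell by 3.97 ± 0.10, and Morc1 (-5.88 ± 0.070) and Apobec3 (-3.63 ± 0.10) fell. Among the DNA methylation genes, Dnmt3l had 0, 0.155 and 0 TPM in SOX17+/T+ cells, against 309, 292 and 308 TPM in mESC, and Tet1 (-2.20 ± 0.10) and Tet2 (-1.42 ± 0.11) fell while Tet3 rose (0.99 ± 0.10). Dnmt3a fell by 1.07 ± 0.24. Dnmt1, the maintenance enzyme, was nearly level (-0.23 ± 0.066, which turned to 0.11 with quantile normalization).

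Polycomb genes changed by subunit. Cbx7, the CBX protein of stem cells, had 6.01, 4.51 and 5.90 TPM in SOX17+/T+ cells, against 103, 102 and 94.0 TPM in mESC (-3.96 ± 0.095, adjusted p = 2.6e-13). Cbx2, a CBX protein of differentiating cells, had 34.2, 33.8 and 35.8 TPM in SOX17+/T+ cells, against 17.3, 17.0 and 15.97 TPM in mESC (1.00 ± 0.053, adjusted p = 7.5e-10), so that their order was reversed between the groups. The same occurred in part among the PCGF subunits, with Pcgf5 (1.52 ± 0.18) and Bmi1 (PCGF4, 1.21 ± 0.086) higher and Pcgf6 (-0.92 ± 0.063) lower. The accessory proteins of PRC2, Epop (-3.48 ± 0.044), Jarid2 (-2.58 ± 0.084) and Mtf2 (-2.38 ± 0.082), fell by more than its catalytic subunit Ezh2 (-0.75 ± 0.057), and Ezh1 rose (0.47 ± 0.073). Among SWI/SNF and NuRD subunits, Smarca2, the alternative ATPase, rose by 2.07 ± 0.086 and the stem cell ATPase Smarca4 was not called (0.043 ± 0.052, adjusted p = 0.450). The replacement linker histone H1f0, which accumulates as cells differentiate, had 189, 174 and 203 TPM in SOX17+/T+ cells, against 45.1, 47.6 and 44.3 TPM in mESC (2.02 ± 0.056, adjusted p = 1.2e-12).

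Imprinted genes were mostly higher. Of 43 tested, 31 rose, 19 at least 2-fold, and 11 fell, with a median of 0.88. Beside Igf2, Peg3 had 192, 189 and 208 TPM in SOX17+/T+ cells, against 14.5, 14.4 and 14.9 TPM in mESC (3.66 ± 0.068, adjusted p = 2.9e-14), and its neighbours Usp29 (3.45 ± 0.13) and Zim1 (2.78 ± 0.10) rose with it. Peg10 (2.69 ± 0.072), Sgce (3.35 ± 0.056) and Asb4 (3.47 ± 0.090), which share another imprinted region, rose, as did Phlda2 (2.69 ± 0.061), Cdkn1c (1.86 ± 0.076), Grb10 (1.78 ± 0.026) and Dlk1 (2.32 ± 0.11). Genes known to be expressed from the paternal copy and from the maternal copy were both among the rises, and Igf2r and Airn, a pair in which the non-coding RNA opposes the gene on the other copy, both rose (2.06 ± 0.049 and 2.80 ± 0.12). Cobl (-4.41 ± 0.18) and Snrpn (-1.04 ± 0.037) fell. No allele can be read from these values.

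**Figure D3:**
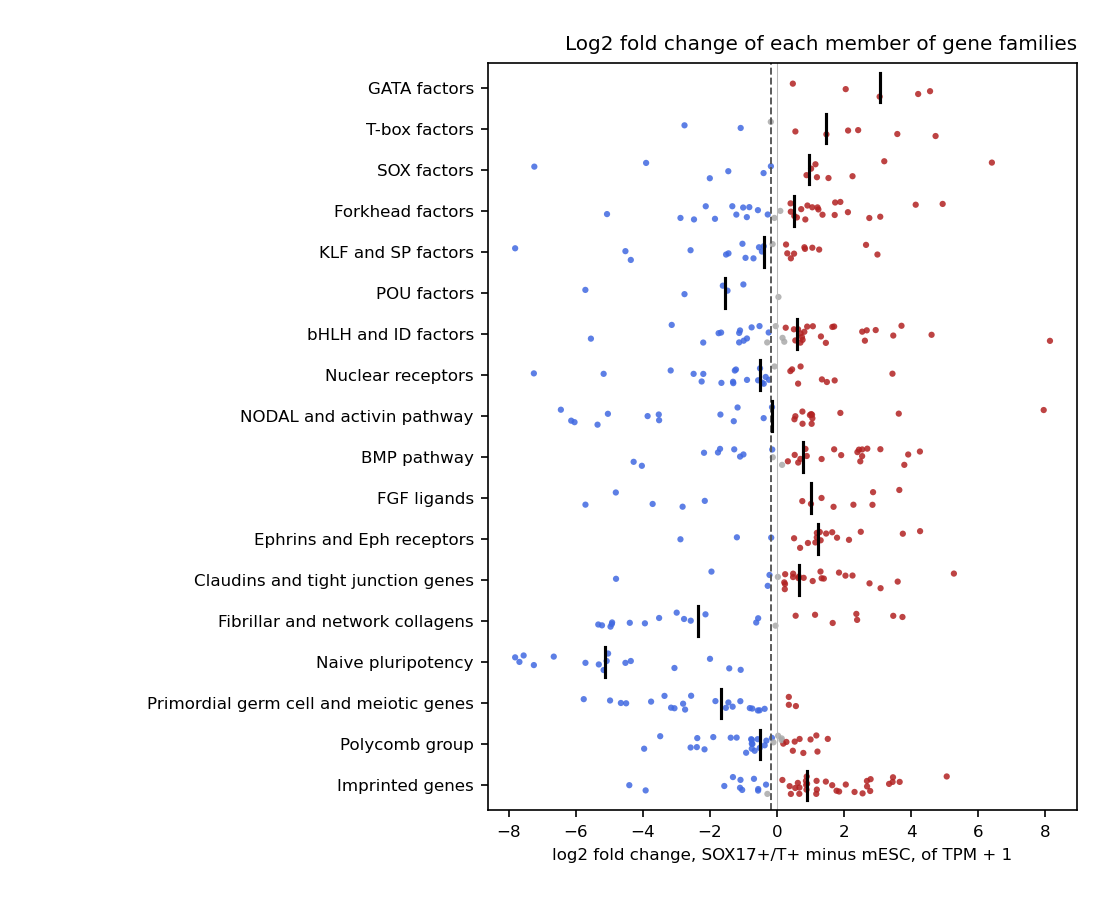
Log2 fold change, SOX17+/T+ minus mESC, of tested members of 18 gene lists, each point a gene, coloured red where called higher, blue where called lower and grey where not called. Members listed at 0 in all libraries of a group are not drawn. The black bar is the median of the list and the dashed line the median of all tested genes (-0.19). The T-box and SOX lists include the reporter genes T and Sox17. GATA factors, ephrins and imprinted genes lie mostly to the right, collagens and pluripotency genes to the left, and most other families hold genes far out on both sides.

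Glycolysis and hypoxia-response genes were higher in SOX17+/T+ cells. Of 37 glucose transport and glycolysis genes, 26 rose and 6 fell, and the list summed to 31994, 31711 and 27317 TPM in SOX17+/T+ cells, against 13506, 13489 and 13791 TPM in mESC. Of 32 hypoxia-response genes, 23 rose and 3 fell. The promoters of some of these genes are shown here because most members rose and some carry a known element. This is the core ACGTG bound by hypoxia-inducible factors. All promoters shown hold matches, while the shares over all members are given below. The 250 bases before the start are printed 5' to 3' on the strand of the gene, from RefSeq on GRCm38.p6, with each match of the core on either strand in capitals. Pgk1 (chrX:106186850-106187099, plus strand), Ldha (chr7:46845554-46845803, plus strand), Slc16a3 (chr11:120948817-120949066, plus strand) and Bnip3 (chr7:138909507-138909756, minus strand) rose, and Hif1a (chr12:73907617-73907866, plus strand), which encodes a subunit of the factor and was not called (0.070 ± 0.050, adjusted p = 0.206), is given beside them. Ldha has 2 windows in the table, and the one with most matches is shown.
Pgk1: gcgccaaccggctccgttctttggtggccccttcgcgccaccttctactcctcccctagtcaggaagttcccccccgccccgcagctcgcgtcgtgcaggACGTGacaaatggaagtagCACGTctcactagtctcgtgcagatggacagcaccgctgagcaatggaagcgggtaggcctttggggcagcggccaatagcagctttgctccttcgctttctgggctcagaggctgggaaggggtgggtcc
Ldha: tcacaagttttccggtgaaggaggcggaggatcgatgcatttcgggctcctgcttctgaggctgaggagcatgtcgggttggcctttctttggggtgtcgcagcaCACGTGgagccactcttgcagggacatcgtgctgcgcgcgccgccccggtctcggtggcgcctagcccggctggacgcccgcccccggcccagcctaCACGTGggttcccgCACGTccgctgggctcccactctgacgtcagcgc
Slc16a3: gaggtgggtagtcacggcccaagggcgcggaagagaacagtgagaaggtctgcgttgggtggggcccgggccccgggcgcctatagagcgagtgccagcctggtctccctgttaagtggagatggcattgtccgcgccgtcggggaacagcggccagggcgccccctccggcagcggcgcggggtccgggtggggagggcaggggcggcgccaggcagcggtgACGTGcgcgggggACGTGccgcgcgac
Bnip3: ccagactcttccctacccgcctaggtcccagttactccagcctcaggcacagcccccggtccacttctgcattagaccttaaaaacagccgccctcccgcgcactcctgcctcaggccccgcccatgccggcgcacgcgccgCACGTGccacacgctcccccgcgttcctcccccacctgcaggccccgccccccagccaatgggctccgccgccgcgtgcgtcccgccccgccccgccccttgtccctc
Hif1a: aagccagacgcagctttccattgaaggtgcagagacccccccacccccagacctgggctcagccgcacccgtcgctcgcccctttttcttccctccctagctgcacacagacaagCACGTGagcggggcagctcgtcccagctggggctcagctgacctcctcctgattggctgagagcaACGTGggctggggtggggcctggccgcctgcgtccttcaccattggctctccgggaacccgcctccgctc
The core was found in 14 of 26 genes (53.8%) of the hypoxia list with a promoter in the table, in 14 of 34 genes (41.2%) of the glycolysis list and in 2659 of 10690 genes (24.9%) among all tested genes with a promoter in the table. Among all genes that rose at least 2-fold it was in 22.9%, and among those that fell at least 2-fold in 22.2%. Where the core reads CACGTG it overlaps its own reverse complement and the E-box, which other factors bind. These letters mark a match and not a bound site, and the 3 matches in the promoter of Hif1a stand beside a level that did not pass the test, although it did with median-of-ratios scaling, at 0.23.

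The glycolysis genes include some of the most abundant transcripts of both groups. Pgk1, phosphoglycerate kinase, had 2248, 2350.1 and 1896 TPM in SOX17+/T+ cells, against 419.7, 433 and 434 TPM in mESC (2.33 ± 0.079, adjusted p = 2.0e-10). Ldha, which makes lactate, had 5369, 5245 and 4749 TPM in SOX17+/T+ cells, against 1442, 1481 and 1479 TPM in mESC (1.80 ± 0.061, adjusted p = 1.5e-10). The lactate exporters Slc16a3 (2.97 ± 0.13) and Slc16a1 (2.89 ± 0.050) and the glucose importers Slc2a1 (1.97 ± 0.12) and Slc2a3 (2.08 ± 0.15) rose too. Of the aldolases, Aldoc rose the most (3.62 ± 0.11), and of the enolases, Eno2 (2.50 ± 0.16). The hexokinases went the other way, with Hk2 (-0.69 ± 0.15) and Hk1 (-0.45 ± 0.077) lower. Bnip3, a mitophagy receptor that hypoxia induces, had 305, 237 and 184 TPM in SOX17+/T+ cells, against 56.5, 50.3 and 56.5 TPM in mESC (2.10 ± 0.22, adjusted p = 8.9e-06). Ddit4 (2.47 ± 0.14), Ndrg1 (2.59 ± 0.34), Egln3 (2.30 ± 0.10), Egln1 (2.15 ± 0.20) and Ero1l (2.26 ± 0.21) rose. Other textbook targets of the same factors did not: Vegfa (0.15 ± 0.068, adjusted p = 0.0586) and Pdk1 (-0.19 ± 0.11, adjusted p = 0.138) were not called, and Kdm3a fell (-1.05 ± 0.082). Vegfa passed the test without SOX17+/T+ replicate 2 (0.21) or mESC replicate 2 (0.20) and with median-of-ratios scaling (0.30), and Pdk1 without SOX17+/T+ replicate 1 (-0.30). The oxygen level of the cultures is not stated in the labels. SOX17+/T+ replicate 3 was the lowest of its group in the glycolysis sum and remained well above every mESC library.

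Alternative subunits of the mitochondrial respiratory chain rose while the chain's other nuclear genes stayed near the level of all tested genes. Of 78 nuclear-encoded subunits, 48 fell, 16 rose and 14 were not called, with a median of -0.17, which turned to 0.12 with quantile normalization, under which 42 rose and 25 fell. Ndufa4l2, the hypoxia-induced relative of Ndufa4, had 83.1, 88.0 and 59.6 TPM in SOX17+/T+ cells, against 1.41, 1.45 and 1.50 TPM in mESC (4.97 ± 0.23, adjusted p = 4.9e-09). Cox4i2, the alternative form of cytochrome oxidase subunit 4 that low oxygen induces, had 52.7, 58.2 and 44.5 TPM in SOX17+/T+ cells, against 1.20, 0.992 and 0.720 TPM in mESC (4.74 ± 0.11, adjusted p = 2.7e-13). Of their main forms, Ndufa4 was not called (0.023 ± 0.038, adjusted p = 0.571) and Cox4i1 differed by -0.14 ± 0.026, which turned to 0.016 under median-of-ratios scaling and to 0.0093 under quantile normalization, neither of which was called. Cox6b2, known from testis, rose as well (1.56 ± 0.047). In the other direction, testis cytochrome c (Cyct) was listed at 0 in SOX17+/T+ cells, against 7.65, 8.09 and 7.39 TPM in mESC. Of the 13 mitochondrially encoded genes, 12 rose, none 2-fold, and mt-Nd3 fell (-0.27 ± 0.035). The median of these genes was 0.58 and became 0.11 with quantile normalization, under which 8 rose and 2 fell.

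Sterol genes mostly rose, and fatty acid genes were divided. Of 35 genes of cholesterol synthesis and uptake, 28 rose, 15 at least 2-fold, and 4 fell, with a median of 0.85. Hmgcs1, an early enzyme of the synthesis, rose by 1.21 ± 0.12. The 2 exporters Abca1 (-1.79 ± 0.12) and Abcg1 (-2.69 ± 0.11), which cells use when sterol is in excess, fell. Of the list of fatty acid synthesis, storage and use, 24 of 47 members rose and 16 fell. Mogat2, an acyltransferase of fat absorption in the gut, had 187, 175 and 171 TPM in SOX17+/T+ cells, against 1.42, 1.37 and 0.996 TPM in mESC (6.31 ± 0.069, adjusted p = 4.1e-16). The desaturases Scd2 (1.75 ± 0.049), Scd1 (1.92 ± 0.054), Fads2 (1.82 ± 0.052) and Fads1 (1.62 ± 0.041) rose. Cpt1a, the gate of mitochondrial import for fatty acid oxidation, had 0.311, 0.266 and 0.261 TPM in SOX17+/T+ cells, against 24.7, 26.0 and 25.6 TPM in mESC (-4.37 ± 0.070, adjusted p = 6.7e-15), and the oxidation enzymes Hadhb (-1.57 ± 0.058) and Acadm (-1.53 ± 0.045) fell.

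Serine, glycine and one-carbon enzymes fell more than they rose, in 19 against 6 of 30. Tdh, threonine dehydrogenase, on which mouse stem cells depend, had 0.477, 0.474 and 0.431 TPM in SOX17+/T+ cells, against 351, 357 and 353 TPM in mESC (-7.92 ± 0.10, adjusted p = 1.3e-15). Cth (-2.80 ± 0.082), Mat2a (-2.07 ± 0.062), Shmt1 (-1.64 ± 0.045), Amt (-1.49 ± 0.074) and Psat1 (-1.21 ± 0.050) fell, while Gldc (0.24 ± 0.058) and Ahcy (0.24 ± 0.032) rose slightly and Phgdh was not called (0.011 ± 0.038, adjusted p = 0.789). The cationic amino acid carriers Slc7a3 (-2.25 ± 0.081) and Slc7a1 (-1.88 ± 0.080) fell. The zinc importer Slc39a8 (4.57 ± 0.059) and the chloride channel gene Clic6 (5.53 ± 0.10) rose, and ferritin heavy chain (Fth1) rose (1.26 ± 0.028) while the transferrin receptor gene Tfrc fell (-1.83 ± 0.12).

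Redox genes were divided. Of 46 members, 25 fell (54.3%) and 15 rose (32.6%), near the 50.3% and 34.9% of all tested genes. Nqo1 (-3.67 ± 0.11) and Srxn1 (-2.70 ± 0.084), known as targets of the stress factor NRF2, and the glutathione transferases Gsto1 (-3.81 ± 0.069) and Gsta4 (-2.35 ± 0.034) fell. Gstm5 (2.27 ± 0.044), Gpx3 (1.83 ± 0.041), Prdx4 (1.31 ± 0.032) and catalase (Cat, 1.05 ± 0.037) rose.

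Ribosomal protein transcripts made up more of the total in SOX17+/T+ cells, and a small set of germline copies did the opposite. Of 86 genes, 78 rose, 2 of them at least 2-fold, and 6 fell, with a median of 0.59. The list's median was 0.75 under median-of-ratios scaling and became 0.17 with quantile normalization, under which 56 rose and 23 fell. Rpl10l, a copy of Rpl10 used in the male germ line, had 0, 0.120 and 0 TPM in SOX17+/T+ cells, against 191, 188 and 186 TPM in mESC (-7.51 ± 0.071, adjusted p = 1.4e-16). Rpl39l, a copy of Rpl39, was listed at 0 in SOX17+/T+ cells, against 103, 98.5 and 99.0 TPM in mESC, and Rps4l fell by 2.79 ± 0.050. Their parent genes on the X chromosome rose: Rpl10 by 0.60 ± 0.019, Rpl39 by 0.86 ± 0.023 and Rps4x by 0.74 ± 0.017. These copies are near-identical to their parents, so reads may have been assigned to the wrong member, and their levels are uncertain. Rpl22l1, a relative of Rpl22, rose the most (1.37 ± 0.031).

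Proteasome and chaperone genes fell. Of 40 proteasome genes, 37 fell, 10 at least 2-fold, with a median of -0.83, which was -0.50 with quantile normalization. Psmc4, an ATPase of the base, had 94.3, 89.1 and 103 TPM in SOX17+/T+ cells, against 299, 287 and 293 TPM in mESC (-1.61 ± 0.068, adjusted p = 9.4e-11). Psma8, the alternative alpha subunit of the germ line, fell by 4.06 ± 0.092. The 2 rises were Psme1 (0.96 ± 0.040) and Psme2 (0.63 ± 0.048), which form the PA28 activator. Of 40 chaperonin and heat-shock genes, 28 fell, among them Hsp90aa1 (-1.88 ± 0.027), Hspa8 (-1.34 ± 0.038), Hsph1 (-1.84 ± 0.13) and Hspd1 (-1.22 ± 0.041). Hsp90ab1, the constitutive form, rose slightly (0.27 ± 0.019), and its direction turned to -0.23 with quantile normalization.

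**Figure D4:**
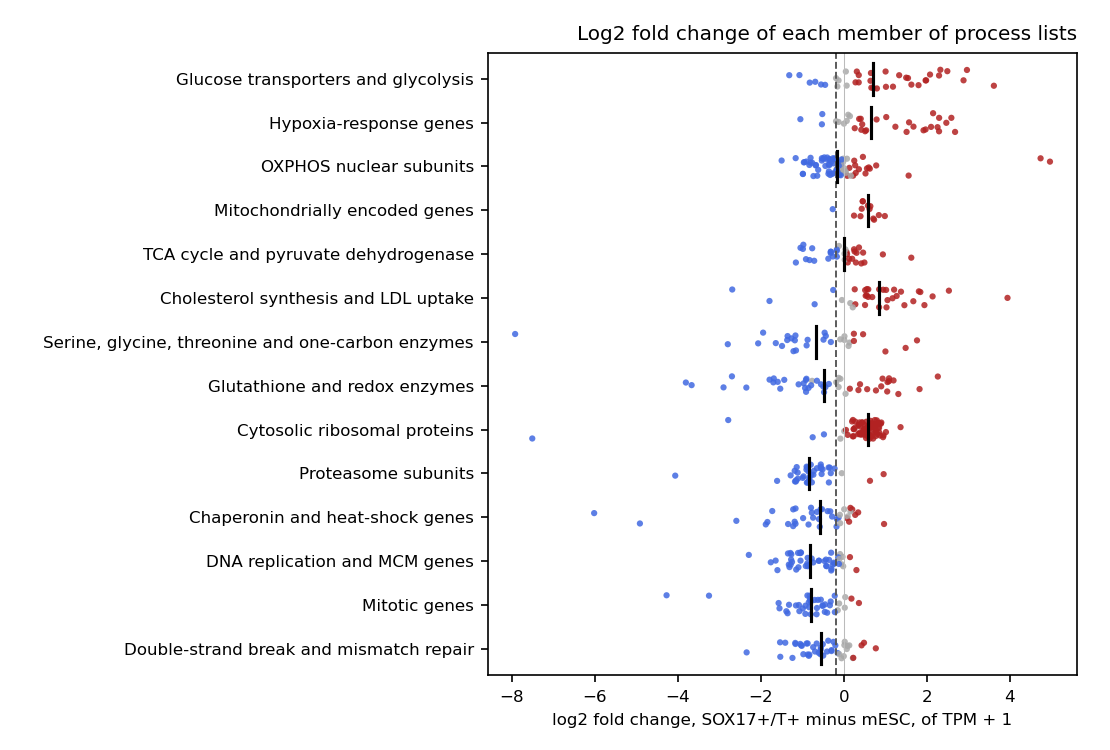
Log2 fold change, SOX17+/T+ minus mESC, of tested members of 14 lists of metabolism, protein turnover, cell cycle and repair, drawn as in the plot of gene families. Members listed at 0 in all libraries of a group are not drawn here either. Glycolysis, hypoxia and cholesterol genes lie to the right of the dashed median of all tested genes (-0.19), replication, mitotic, repair and proteasome genes to its left, and most ribosomal proteins around their median of 0.59, with Rpl10l far to the left at -7.51.

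Cell cycle genes were mostly lower. Of 48 replication genes, 41 fell and 2 rose, with a median of -0.82. With quantile normalization 31 of them fell and 7 rose, with a median of -0.49. Mcm5 of the replicative helicase had 103, 95.0 and 106 TPM in SOX17+/T+ cells, against 356, 343 and 339.9 TPM in mESC (-1.76 ± 0.056, adjusted p = 4.1e-12), and Rpa1 (-2.29 ± 0.15) and Orc2 (-1.64 ± 0.052) fell. Of 41 mitotic genes, 35 fell, and Mki67 was not called (-0.15 ± 0.18, adjusted p = 0.449). With quantile normalization 29 of the mitotic genes fell and 5 rose. Cyclin E1 (Ccne1), which is high throughout the stem cell cycle, had 31.8, 32.2 and 33.6 TPM in SOX17+/T+ cells, against 285, 276 and 276 TPM in mESC (-3.06 ± 0.047, adjusted p = 4.9e-15). Cdkn1c (1.86 ± 0.076) and Cdkn1b (1.67 ± 0.051), inhibitors of cyclin-dependent kinases, rose. Cdkn1a (p21), the inhibitor that p53 induces, was not called (0.12 ± 0.071, adjusted p = 0.120), although it was with median-of-ratios scaling, at 0.28. Cdkn2a (-3.22 ± 0.12) and Cdkn2b (-3.98 ± 0.10), inhibitors that cultured fibroblasts accumulate, fell, and their ratios of mESC replicate 1 to the others were 0.910 and 0.989.

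The p53 gene fell. Trp53 had 150.4, 147 and 168 TPM in SOX17+/T+ cells, against 542, 535 and 540.2 TPM in mESC (-1.79 ± 0.048, adjusted p = 6.8e-13), and its inhibitor and target Mdm2 fell by 1.80 ± 0.063. Of 34 p53 targets and BCL2 family members, 28 fell. Mcl1 (-2.22 ± 0.046) and Bax (-1.11 ± 0.046), which act against and for cell death, both fell. The largest rises were those of Bmf (1.76 ± 0.073), Sesn1 (0.88 ± 0.070), Bcl2l2 (0.72 ± 0.069) and Bcl2 (0.67 ± 0.091). Of 45 genes of break and mismatch repair, 32 fell, with Msh6 (-2.34 ± 0.054) and Xrcc5 (-1.54 ± 0.064) among them, and Rad51b (0.77 ± 0.12), Wrn (0.49 ± 0.067) and Prkdc (0.43 ± 0.10) rose. With quantile normalization 27 of the repair genes fell and 11 rose.

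Markers of other lineages were measured as well. Lateral and cardiac mesoderm genes rose in 20 of 25, including the contractile genes Myl3 (4.24 ± 0.18), Tnni1 (3.25 ± 0.10) and Tnnc1 (3.21 ± 0.13), while Myl7 was not called (-0.24 ± 0.14, adjusted p = 0.123). Of 24 endothelial and hemangioblast genes, 17 rose. Kdr (VEGFR2), the receptor of early vascular mesoderm, had 21.9, 21.1 and 23.7 TPM in SOX17+/T+ cells, against 0.573, 0.878 and 0.770 TPM in mESC (3.74 ± 0.090, adjusted p = 2.8e-13), and Lmo2 (2.95 ± 0.11) and Ramp2 (4.10 ± 0.22) rose. Pecam1 (-2.54 ± 0.089) and endoglin (Eng, -2.10 ± 0.090), vessel markers that stem cells also express, fell. The embryonic globin Hbb-bh1 had 1.66, 2.56 and 5.14 TPM in SOX17+/T+ cells and was listed at 0 in mESC. Visceral endoderm genes were mixed, with 19 of 35 higher and 15 lower. Apoe (1.62 ± 0.084), Cited1 (4.20 ± 0.19) and Ttr (2.45 ± 0.15) rose, Cubn (-1.81 ± 0.26) and Lrp2 (-3.55 ± 0.10) of the endocytic complex fell, and Apoa1 was not called, with 0.0605 ± 0.0524 TPM in SOX17+/T+ cells and 0.160 ± 0.0730 TPM in mESC (SD, n = 3 each).

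Neural and immune genes were mostly lower. Of 17 neural genes, 13 fell, with Tubb3 (-6.04 ± 0.13), Stmn2 (-4.04 ± 0.12) and Pax6 (-2.89 ± 0.060), and Msi1 rose (2.56 ± 0.045). Of 13 trophoblast genes, 9 rose, mainly genes that mesoderm also uses, such as Hand1, Cdx2 and Gata3, together with Plac1 (3.05 ± 0.13), and Tfap2c fell (-3.76 ± 0.11). Of 10 macrophage and leukocyte genes, 9 fell, and Lyz2, C1qa, C1qb and C1qc were listed at 0 in all SOX17+/T+ libraries. Lyz2 had 10.6, 18.8 and 16.8 TPM in mESC. Primary embryonic fibroblast cultures are known to hold some macrophages, and the source of these transcripts was not tested. Of 25 interferon-induced genes, 17 fell. Ifitm3 fell by 3.79 ± 0.067, while Ifitm1, a gene of the streak and germ cells, rose (0.74 ± 0.044) and H2-K1, a class I histocompatibility gene, rose by 2.05 ± 0.047.

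Markers of the streak and of its descendants were mixed beyond the leading genes given above. Of the definitive endoderm list without Sox17, 16 of 25 rose at least 2-fold, including Gsc (1.51 ± 0.22), a gene of the anterior streak. Trh, a peptide hormone gene of the endoderm, was high in both groups and was not called (0.60 ± 0.26, adjusted p = 0.0550), although it was without SOX17+/T+ replicate 2 (0.81) and with median-of-ratios scaling (0.76). Of the primitive streak list, Mixl1 (1.25 ± 0.18) rose, and Wnt8a fell (-0.70 ± 0.14). Node and notochord genes, with the reporter gene T among them, divided, 13 of 22 higher and 9 lower. Foxj1 (1.36 ± 0.22), the master factor of motile cilia, and Rfx3 (2.12 ± 0.10) and Pkd1l1 (2.55 ± 0.32) of the node cilia rose, while Tekt1 (-1.81 ± 0.16) of the ciliary axoneme fell. Noto, a homeobox gene of the node, had 1.35, 0.769 and 2.24 TPM in SOX17+/T+ cells and was listed at 0 in mESC.

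Paraxial mesoderm genes rose in 11 of 18 and fell in 5. Rspo3, a secreted enhancer of WNT signals, had 31.3, 30.2 and 34.8 TPM in SOX17+/T+ cells, against 1.41, 1.97 and 1.89 TPM in mESC (3.59 ± 0.085, adjusted p = 2.5e-13). Foxc1 rose (1.74 ± 0.095) and Meox1 (-0.67 ± 0.19) and Ripply1 (-2.25 ± 0.10), genes of formed somites, fell. Foxc2, a relative of Foxc1, was lower by 0.57 ± 0.23, a call that was lost under both scalings, without SOX17+/T+ replicate 1 or 2 (-0.51 and -0.44) and without any 1 of the mESC replicates (between -0.60 and -0.51). Of the anterior and foregut endoderm list, Frzb (3.77 ± 0.12), an inhibitor of WNT, and Prox1 (3.14 ± 0.091), a factor of liver and pancreas, rose, and Sfrp5 fell (-2.81 ± 0.11). Of the primed epiblast list, the carbonic anhydrase Car14 had the largest rise, with 82.8, 75.5 and 76.4 TPM in SOX17+/T+ cells, against 0.493, 0.679 and 0.680 TPM in mESC (5.61 ± 0.065, adjusted p = 5.3e-16). Fgf5, the usual marker of primed cells, rose by 1.33 ± 0.27, and Pou3f1 fell (-2.76 ± 0.082). Vascular ligands and receptors split as well: the receptor Flt1 (2.59 ± 0.10), the stem cell factor gene Kitl (3.11 ± 0.058) and Vegfb (2.12 ± 0.053) rose, and Pdgfc (-3.05 ± 0.074) and Vegfc (-2.11 ± 0.077) fell.

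Non-coding RNAs moved in both directions: of the list, 20 of 37 members rose and 13 fell. Lncenc1, a non-coding RNA of naive stem cells, had 0.333, 0.575 and 0.739 TPM in SOX17+/T+ cells, against 237, 216 and 199 TPM in mESC (-7.14 ± 0.13, adjusted p = 2.8e-14). Platr10 (-6.86 ± 0.13), Platr17 (-6.02 ± 0.10) and Platr3 (-3.95 ± 0.21), transcripts named for their tie to pluripotency, fell. Gas5 (1.69 ± 0.040), Snhg6 (1.44 ± 0.052) and Epb41l4aos (1.29 ± 0.045), which host small nucleolar RNAs, rose, and Snhg3 fell (-1.35 ± 0.10). Malat1, a nuclear RNA, rose by 2.10 ± 0.071. These values come from poly(A) RNA, and the libraries are stranded per the labels, while no source used here says whether strand was used in counting.

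**Figure D5:**
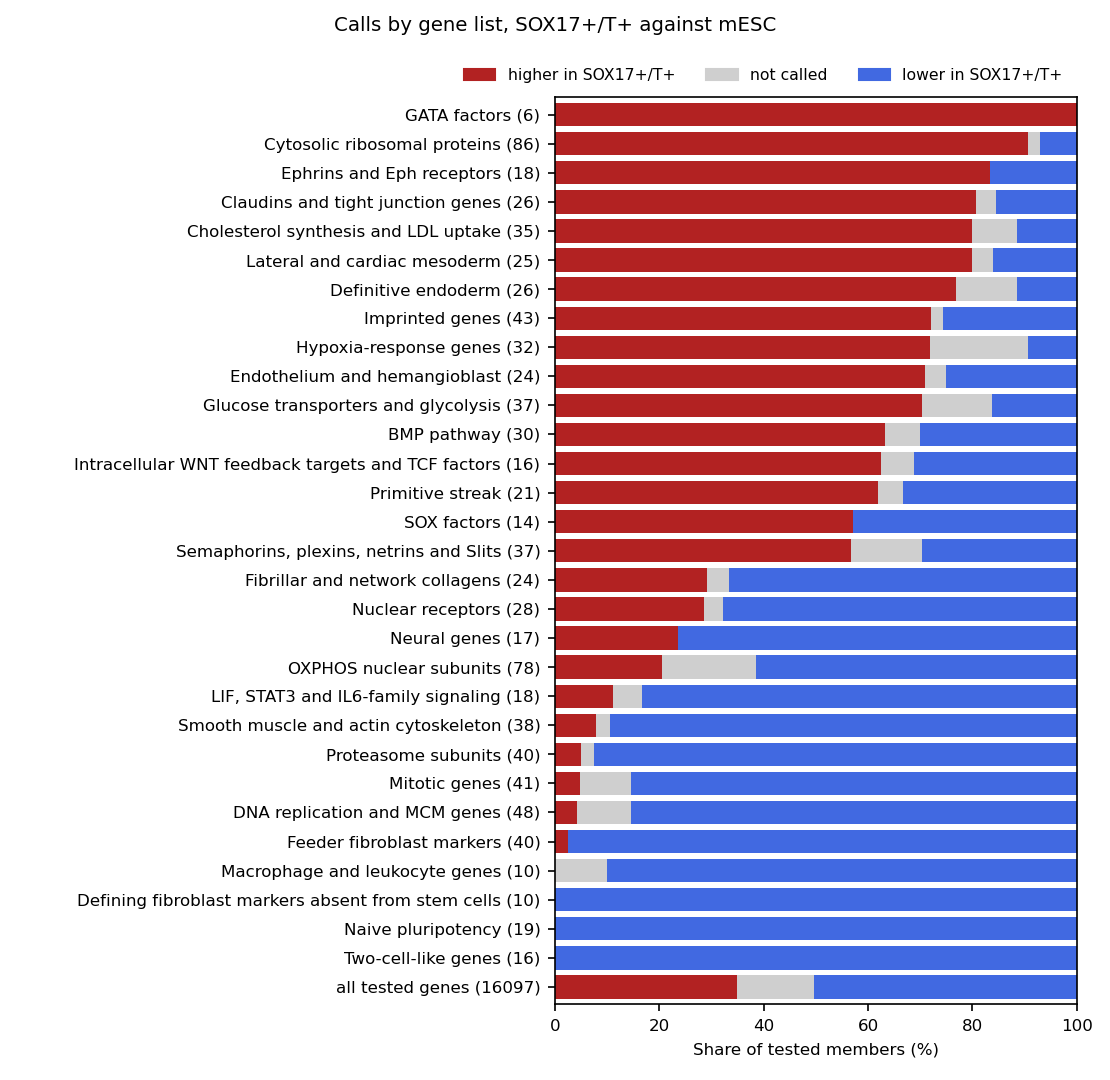
Share of tested members called higher (red), not called (grey) and called lower (blue) in SOX17+/T+ cells against mESC, for 30 gene lists and, in the bottom row, for all tested genes. The number of tested members is given beside each name. The definitive endoderm and SOX lists include the reporter gene Sox17, and the primitive streak list includes the reporter gene T. All GATA factors were higher and all naive pluripotency, two-cell-like and defining fibroblast genes were lower, against 34.9% higher and 50.3% lower among all tested genes. Members listed at 0 in all libraries of a group are counted. These were 10 of 16 two-cell-like, 3 of 19 naive, 2 of 10 defining fibroblast and 1 of 6 GATA genes.

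Outside the lists, several of the largest rises were in genes of cell surfaces and matrix. Capn6, a calpain without protease activity, had 57.0, 61.6 and 69.3 TPM in SOX17+/T+ cells, against 0.418, 0.468 and 0.514 TPM in mESC (5.44 ± 0.074, adjusted p = 1.8e-15). Amot, a junction protein that binds YAP, had 322, 264 and 343 TPM in SOX17+/T+ cells, against 6.76, 6.64 and 7.56 TPM in mESC (5.28 ± 0.10, adjusted p = 4.1e-13). Podxl, a sialomucin of apical membranes, rose by 5.04 ± 0.056, Prtg, a surface receptor of mesoderm and neural tube, by 4.57 ± 0.063, and the extracellular matrix genes Frem2 and Frem1 by 4.05 ± 0.072 and 3.81 ± 0.14. Ptgds, a prostaglandin synthase, rose by 5.17 ± 0.13, Pygl, glycogen phosphorylase of the liver, by 4.56 ± 0.082, and Car4, a carbonic anhydrase, by 4.18 ± 0.089. Cd24a, a surface marker of epithelia and progenitors, rose by 3.83 ± 0.044. Tspan7, a tetraspanin, rose by 3.70 ± 0.048, and Rgs5, a brake on G protein signals known from pericytes, by 3.73 ± 0.084.

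Outside the lists, the largest falls included genes of stem cells and of stromal cells. Folr1, a folate receptor, had 0.688, 0.915 and 0.890 TPM in SOX17+/T+ cells, against 125, 113 and 112 TPM in mESC (-6.01 ± 0.076, adjusted p = 1.1e-15). The membrane protein gene Emp1 (-6.88 ± 0.091), cyclooxygenase 2 (Ptgs2, -5.49 ± 0.075), the matrix genes Mgp (-5.38 ± 0.12), Ecm1 (-5.39 ± 0.12) and Pcolce (-5.66 ± 0.12) and the macrophage growth factor gene Csf1 (-5.09 ± 0.087) are known from fibroblasts and other stromal cells. Their ratios of mESC replicate 1 to the others lay between 0.700 and 1.00. Triml2 (-5.81 ± 0.092), Ooep (-5.48 ± 0.067), Phf11d (-5.64 ± 0.085) and Rbmxl2 (-6.20 ± 0.12), which are known from early embryos, stem cells or germ cells, had ratios between 1.03 and 1.25.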

How the data were processed

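Poly(A) RNA of 12 libraries was sequenced, 3 in each of 4 groups. The authors deposited 1 table of TPM values per gene, in which all libraries sum to the same total. Per the submitters' processing notes, cutadapt, STAR and StringTie were used with mm10 and GRCm38, and no versions are given there. TPM keeps no sequencing depth, so the depth behind each value is unknown and no counting interval is given.

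Here rows of 1 gene identifier were summed, and genes with at least 1 TPM in 3 libraries were kept. Values were taken as log2(TPM + 1), a pseudocount that understates changes of low genes. limma 3.58.1 (R 4.3.3) fitted 1 mean per group over all 12 libraries, with 8 residual degrees of freedom and a trended, robust spread, and was tested on simulated data. All p-values are adjusted over 16097 genes by Benjamini-Hochberg. Alternatives changed the pseudocount, filter, scaling, libraries and model. Promoters come from RefSeq tables on GRCm38.p6.

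The genes and lists were chosen with earlier results of these data known. Named genes are the members of each list with the largest changes in either direction or the highest levels, those that went against the list or missed the test, and, outside the lists, genes among the 30 largest rises and 30 largest falls. Ezh2, Fbn1, Gpc4, Igf2bp2, Lifr, Lin28b, Noto, Pcgf6, Rpl10, Rps4x, Smad6, Tnnc1 and Tnni1 fall outside this rule and were named after their values were seen. Some genes that the rule names are not reported here.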

Additional observations from a re-analysis of the deposited data

How the results depend on the processing

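The counts of genes higher and lower kept within 1.5 times of their values under every alternative run. The counts of at least 2-fold changes moved most with the pseudocount: with 5 TPM in place of 1 they were 822 higher and 1813 lower. With quantile normalization 2503 genes were at least 2-fold higher. Scaling moved the balance of calls, by over 10 percentage points with quantile normalization (7222 higher and 6359 lower) and by less with median-of-ratios scaling, which gave 6468 higher and 7142 lower. The cause was not tested. Leaving out 1 library at a time gave 5409 to 5517 genes higher, 7855 to 8014 lower, 1590 to 1639 at least 2-fold higher and 3203 to 3332 at least 2-fold lower. A limma test against a 2-fold threshold (treat), run for the 2-fold counts only, left 1146 higher and 2519 lower. Rescaling without the fibroblast, muscle and matrix lists, chosen after seeing the data, gave 5472 higher and 8144 lower.

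Replicate numbers did not pair the SOX17+/T+ libraries with those of mESC: the deviations of same-numbered libraries correlated at 0.043, 0.049 and 0.0050. Pairing among the sorted populations, which share the estimate of the spread, was not tested. Of genes picked after their values were seen, T and H2-Ab1 kept the same order of replicates in SOX17+/T+, T+ and SOX17+ cells, and Hand1 and Capn6 did not. With the replicate number as a block, 5682 genes were higher and 8165 lower. Among named genes the block lost the call of Fgfr1 and added calls of Pdk1, Ptch1, Trh and Vegfa.

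Of 542 named genes, 530 kept their call under median-of-ratios scaling and 524 under quantile normalization, and between 537 and 541 did with a replicate block, with another pseudocount, or without any 1 library. Of the called genes, direction turned for Cox4i1 under median-of-ratios scaling (0.016) and, under quantile normalization, for Cox4i1 (0.0093), Dnmt1 (0.11), Fgfr1 (0.16) and Hsp90ab1 (-0.23). Calls were lost under median-of-ratios scaling for Dnmt1, Fgfr1 and Foxc2, under quantile normalization for Dnmt3b, Foxc2, Lifr and Meox1, with the pseudocount of 5 for Foxc2 and Hbb-bh1, and with no filter for Fgfr1, Foxc2 and Snai1. That of Fgfr1 was also lost without mitochondrially encoded genes and in limma without trend and robust fits, and that of Snai1 with only the 6 libraries. Among genes not called, Pou2f1, Smarca4, Ndufa4, Phgdh, Cdkn1a, Hif1a, Trh and Vegfa passed the test as rises under both scalings, and Id4 and Ptch1 under quantile normalization.

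The main limits are that TPM gives shares of each library and no depth, that 3 libraries stand in each group, and that the labels do not tie replicates to separate cultures. The mESC were grown on feeders and no sort is named for them, so stem cell and feeder RNA cannot be told apart in the falls, nor can the effect of the sort be told apart from that of differentiation.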
